A study of Mus musculus with 8 samples.

Results

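The genes described here are 47 genes of brain endothelial cells and of the blood-brain barrier, measured by bulk RNA sequencing of the mouse whole forebrain. Members were taken by gene symbol from a fixed list, and all 47 were found among the 53278 symbols of the count table. They were sorted by role into 6 junction genes, 12 transporters and 29 identity genes, the last made up of 9 receptors, 4 transcription factors and 16 others. The study fed 4 mice food with PLX3397 for 9 days and 4 mice control food for the same time. PLX3397 inhibits the CSF1 receptor, a kinase on which microglia depend for survival, so the treated group is labelled as microglia depletion. All 8 animals were male C57BL/6J mice of 10 to 20 weeks with no engineered allele named, and each library came from 1 mouse. The treatment was a diet given to the whole animal, so any cell that carries the receptor was exposed, not microglia alone.

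Endothelial cells line every brain vessel and form the blood-brain barrier. Tight junctions seal the gaps between neighbouring cells, transporters in the membranes carry sugars, amino acids, lipids and iron across, and efflux pumps return foreign compounds to the blood. Transcription factors of the ETS, SOX and forkhead families keep the endothelial state, and WNT signals acting through TCF/LEF factors add the barrier genes to it. The 47 members together took between 0.123% and 0.149% of the counts of a library.

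Library totals ranged from 48455538 to 68406688 counts, and the members ranged from 79 to 8105 counts in a library. Levels are given below as CPM, counts scaled to the library size after TMM adjustment, and a difference is a log2 fold change of depleted against control mice with its standard error (SE). A gene passed the test at an adjusted p under 0.05 over all 20140 genes tested (edgeR quasi-likelihood test with Benjamini-Hochberg adjustment). The labels were checked with 16 microglial genes, all of which were lower: their summed level was 307 to 376 CPM in control mice and 18.0 to 26.0 CPM in depleted mice. The microglial receptor Csf1r went from 58.6 ± 5.49 CPM to 1.22 ± 0.609 CPM (mean ± SD, n = 4 each). Genes of single brain regions differed between libraries. Hoxb5, a hindbrain gene with too few reads to be kept for the test, ran from 0 to 1.13 CPM in control mice. In depleted mice it ran from 0 to 0.173 CPM, and no library held more than 62 counts of it. Hcrt, a hypothalamic neuropeptide gene, had 1249 to 2081 counts in control mice 2 and 3 and depleted mice 2 and 3 and 4 to 12 counts in the others, and 12 striatal genes summed to 537 to 2289 CPM in control and 1193 to 4354 CPM in depleted mice. In bulk tissue, fewer endothelial cells and less RNA per cell cannot be told apart.

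Promoters of 4 members are shown because their genes mark the outcomes described below: a lipid transporter with lower values in all depleted mice, a caveolar gene with the same pattern, the principal claudin with overlapping groups, and a sialomucin whose level went with the absence of Hcrt. The windows come from the RefSeq table of build GRCm38.p6, run 5′ to 3′ on the gene's strand, and cover 250 bases before to 50 bases after the start of the gene. Capitals mark matches to any of 3 motifs searched on both strands: AGGAAG (ETS factors), CTTTGA (TCF/LEF factors) and ACAATG (SOX factors). No match overlapped another in these windows. The Mfsd2a window lies at chr4:122961139-122961438 on the minus strand, the Cav1 window at chr6:17306085-17306384, the Cldn5 window at chr16:18776597-18776896 and the Cd34 window at chr1:194938571-194938870, all 3 on the plus strand.
Mfsd2a: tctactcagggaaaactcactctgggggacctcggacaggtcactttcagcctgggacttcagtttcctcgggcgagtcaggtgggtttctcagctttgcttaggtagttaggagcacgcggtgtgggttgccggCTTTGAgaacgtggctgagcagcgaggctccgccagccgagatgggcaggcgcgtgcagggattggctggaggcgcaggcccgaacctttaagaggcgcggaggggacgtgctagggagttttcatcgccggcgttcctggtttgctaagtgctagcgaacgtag
Cav1: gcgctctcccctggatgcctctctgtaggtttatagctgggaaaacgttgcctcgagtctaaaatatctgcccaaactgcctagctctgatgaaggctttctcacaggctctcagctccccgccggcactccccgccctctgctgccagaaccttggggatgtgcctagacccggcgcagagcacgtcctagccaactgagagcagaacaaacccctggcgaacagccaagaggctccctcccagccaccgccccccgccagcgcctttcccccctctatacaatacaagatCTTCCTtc
Cldn5: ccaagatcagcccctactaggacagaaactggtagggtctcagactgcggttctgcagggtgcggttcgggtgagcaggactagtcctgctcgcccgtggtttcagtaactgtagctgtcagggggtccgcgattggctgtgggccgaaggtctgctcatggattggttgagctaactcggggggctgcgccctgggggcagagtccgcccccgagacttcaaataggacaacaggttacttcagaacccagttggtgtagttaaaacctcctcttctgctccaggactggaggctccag
Cd34: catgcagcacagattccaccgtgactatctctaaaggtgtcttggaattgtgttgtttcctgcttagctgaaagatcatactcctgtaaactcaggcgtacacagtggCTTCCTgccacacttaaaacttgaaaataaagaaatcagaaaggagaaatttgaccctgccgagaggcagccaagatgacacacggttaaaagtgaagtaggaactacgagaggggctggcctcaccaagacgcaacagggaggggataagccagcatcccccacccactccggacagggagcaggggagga

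The Mfsd2a window held 1 TCF/LEF match, the Cav1 and Cd34 windows 1 ETS match each on the minus strand, and the Cldn5 window none. The table held 46 promoters for 33 of the 47 members. The ETS letters were present in 26 of these 46 promoters (56.5%), and in 11613 of all 32851 promoters of the same length (35.4%). TCF/LEF letters were present in 15.2% of the members' promoters and 16.0% of all, and SOX letters in 8.70% and 12.6%. The median GC content was 58.3% in the members' promoters and 52.7% in all, and its part in these counts was not tested. A match is a string of letters and not a bound site.

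No member passed the test in either direction. Over all genes tested, 223 were lower (1.11%) and 11 were higher (0.0546%). The smallest adjusted p of a member was 0.158, for Foxq1. At an unadjusted p under 0.05, 6 members were lower (12.8%, beside 5.60% of all genes) and 2 were higher (4.26%, beside 5.38%). The 4 depleted mice all lay below the 4 control mice for 4 members, Mfsd2a, Slc7a5, Foxq1 and Cav1 (8.51%, beside 3.50% of all genes). They all lay above for 1 member, Ly6a (2.13%, beside 2.28%), and the groups overlapped for the other 42. The median difference of the members was -0.10 with 33 of 47 below 0 (70.2%, beside 50.1% of all genes), and the median size of a difference was 0.14, beside 0.11 over all genes. DESeq2, run as an alternative test, placed 3 members past the threshold as lower, Mfsd2a, Foxq1 and Slc7a5, and none as higher, beside 1.72% and 0.586% of all genes. Over the 18 alternatives run, which keep the groups but change the scaling, filter, test, covariate or mice, the adjusted p ran from 0.0263 to 0.836 for Mfsd2a, 0.0195 to 0.855 for Foxq1 and 0.0388 to 1.00 for Slc7a5. It ran from 0.0259 to 1.00 for Fn1 and 0.0345 to 1.00 for Ly6a, and the sign of these 5 differences was the same in all 18.

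How much the data could have missed is given by the 95% intervals of the differences. For 36 of the 47 members the interval stayed within 1.5-fold either way, and for all 47 within 2-fold. The interval included 0 for 39 members. Levels per kilobase of exon spanned 48.4-fold, from Slc3a2 at 33.3 CPM per kb to Foxq1 at 0.688 CPM per kb in control mice. Foxq1 shares 3200 of its 4843 exon bases with a gene on the opposite strand. Its level per kilobase and this span thus depend on how reads there were counted, which is not given. Only Slc2a1, Slc3a2 and Tfrc exceeded 100 CPM in control mice, and 12 members were below 10 CPM.

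**Figure D1:**
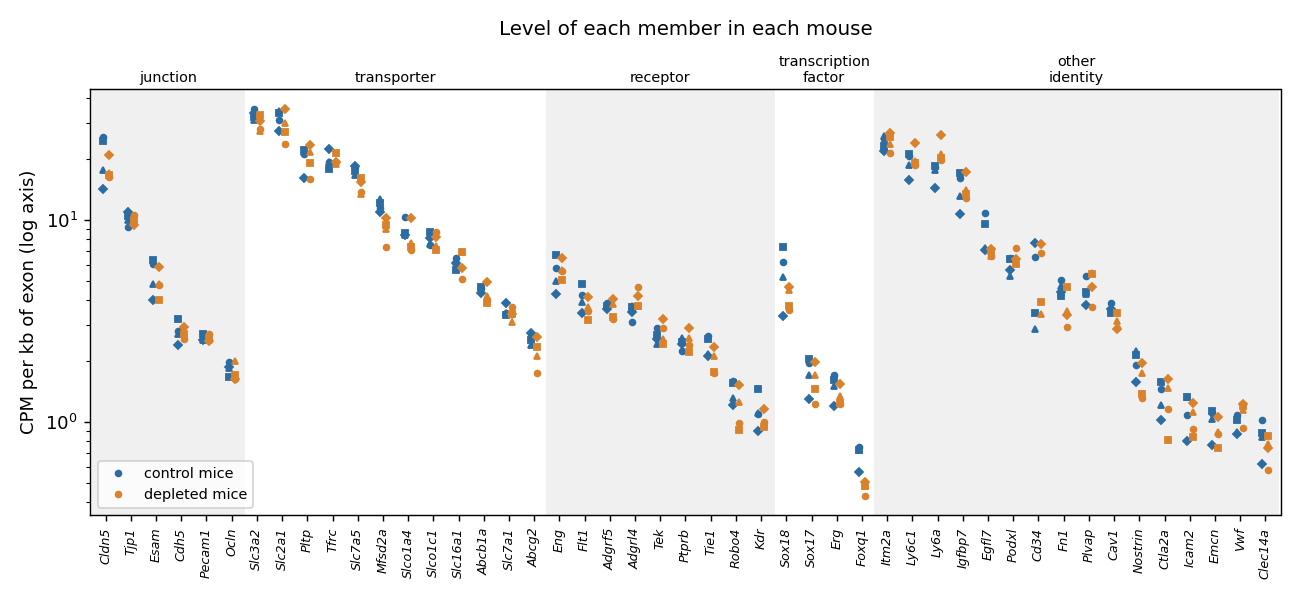
Level of each of the 47 members in each mouse, in CPM per kilobase of exon on a log axis, by role and in falling order of the control mean; blue points are the 4 control mice, orange points the 4 depleted mice, and the marker shape gives the mouse number (circle 1, square 2, triangle 3, diamond 4). Colours overlap for most members, and Slc3a2 and Slc2a1 stand highest.

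None of the 6 junction genes passed the test, and of these Tjp1 and Pecam1 were nearly level between diets. Cldn5, which encodes the principal claudin of the brain endothelial tight junction, was the highest of the 6 in control mice, at 20.5 CPM per kb. It was 36.2, 34.8, 25.0 and 20.0 CPM in control mice 1 to 4 and 22.9, 23.6, 24.2 and 29.7 CPM in depleted mice 1 to 4. Control mice 1 and 2 were the highest and control mouse 4 the lowest of all 8, so the depleted mice fell inside the range of the controls. The difference was -0.21 (SE 0.18, 95% interval -0.61 to 0.19, adjusted p = 0.740), a depleted level of 86.6% of control. It was -0.08 without control mouse 1, -0.11 without control mouse 2 and -0.35 without control mouse 4. The interval runs from 65.6% to 114%, so a moderate reduction of Cldn5 could not be told from none in 4 against 4 mice.

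Tjp1, the scaffold ZO-1 beneath the junction, had a mean of 79.2 ± 5.58 CPM on control food and 78.1 ± 3.86 CPM on PLX3397 food, with an interval of 89.0% to 109% of control. Pecam1, an adhesion molecule between endothelial cells, was as tight, at 16.8, 16.9, 15.8 and 15.7 CPM in control mice and 16.9, 16.2, 15.9 and 15.6 CPM in depleted mice, with an interval of 89.2% to 110%. Ocln, which encodes occludin, differed by -0.08 (SE 0.10), and Cdh5, the cadherin of the endothelial adherens junction, by -0.03 (SE 0.10). Esam, an adhesion molecule of the tight junction, shared the spread of Cldn5: 17.4, 18.1, 13.7 and 11.4 CPM in control mice and 13.6, 11.6, 13.7 and 16.8 CPM in depleted mice, with a difference of -0.12 (SE 0.16, adjusted p = 0.836). Differences of all 6 members were below 0, with a median of -0.05 beside 0.00 for all genes.

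Of the transporters, Mfsd2a had the lowest ratio to control. Its protein carries lysophospholipids with omega-3 fatty acids into the brain and holds down vesicle transport across the endothelium. It measured 25.8, 27.2, 28.4 and 24.7 CPM in control mice and 16.6, 21.2, 20.3 and 23.1 CPM in depleted mice. All 4 depleted mice were below all 4 controls, with depleted mouse 4 nearest to the controls and depleted mouse 1 farthest. The means were 26.5 ± 1.60 CPM and 20.3 ± 2.74 CPM, a difference of -0.39 (SE 0.10, 95% interval -0.61 to -0.16). It had an unadjusted p of 0.00339 and an adjusted p of 0.176 in edgeR, an exact two-sided permutation p of 0.0286, which is the smallest that 4 against 4 mice can give, and an adjusted p of 0.0263 in DESeq2. The gene lies on chromosome 4, bases 122946850 to 122961188 of GRCm38, and its promoter is the first of those printed above.

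The large neutral amino acid transporter LAT1 is made of a light chain, Slc7a5, and a heavy chain, Slc3a2. Slc7a5 (chromosome 8, bases 121881150 to 121907694) was 68.0, 64.9, 61.6 and 68.3 CPM in control mice and 50.8, 59.7, 49.7 and 57.0 CPM in depleted mice. Again no depleted mouse reached the lowest control. The difference was -0.28 (SE 0.07, 95% interval -0.44 to -0.11), or 82.6% of control, with an adjusted p of 0.181 in edgeR and 0.0388 in DESeq2. Slc3a2 was 125, 114, 111 and 120 CPM in control mice and 99.5, 117, 97.4 and 109 CPM in depleted mice, with depleted mouse 2 inside the control range. Its difference was -0.15 (SE 0.07, adjusted p = 0.480), and neurons and glia also make this chain. With the mean of the striatal genes as a covariate in edgeR, the difference of Slc7a5 was -0.17 (SE 0.08) and that of Mfsd2a -0.40 (SE 0.14). No member had an adjusted p below 0.836 in that fit. Differences of Slc7a5, Cav1 and Fn1 were smaller than without the covariate, and others, such as Flt1 (-0.31) and Sox18 (-0.58), were larger. The members' median was -0.11, with 36 of 47 negative. The striatal mean was itself 5.94 ± 1.02 log2 CPM in control and 7.37 ± 0.884 in depleted mice. The fit can therefore not fully tell it apart from the diet.

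Glucose enters the brain through GLUT1, encoded by Slc2a1. Its level was 109, 119, 121 and 96.5 CPM in control mice and 83.1, 95.5, 105 and 123 CPM in depleted mice. The groups overlapped over most of their range, with depleted mouse 1 the lowest and depleted mouse 4 the highest of all 8. The difference was -0.13 (SE 0.12, adjusted p = 0.767). The remaining 8 transporters, which include the efflux pumps Abcb1a and Abcg2, the organic anion transporters Slco1a4 and Slco1c1, and the transferrin receptor Tfrc, differed by between -0.23 and 0.02, and none had groups apart. Over the 12 transporters the median was -0.11, with 10 below 0. Their mean log2 level was 5.62 ± 0.022 in control mice and 5.49 ± 0.113 in depleted mice, where depleted mouse 4, at 5.63, lay within the controls.

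**Figure D2:**
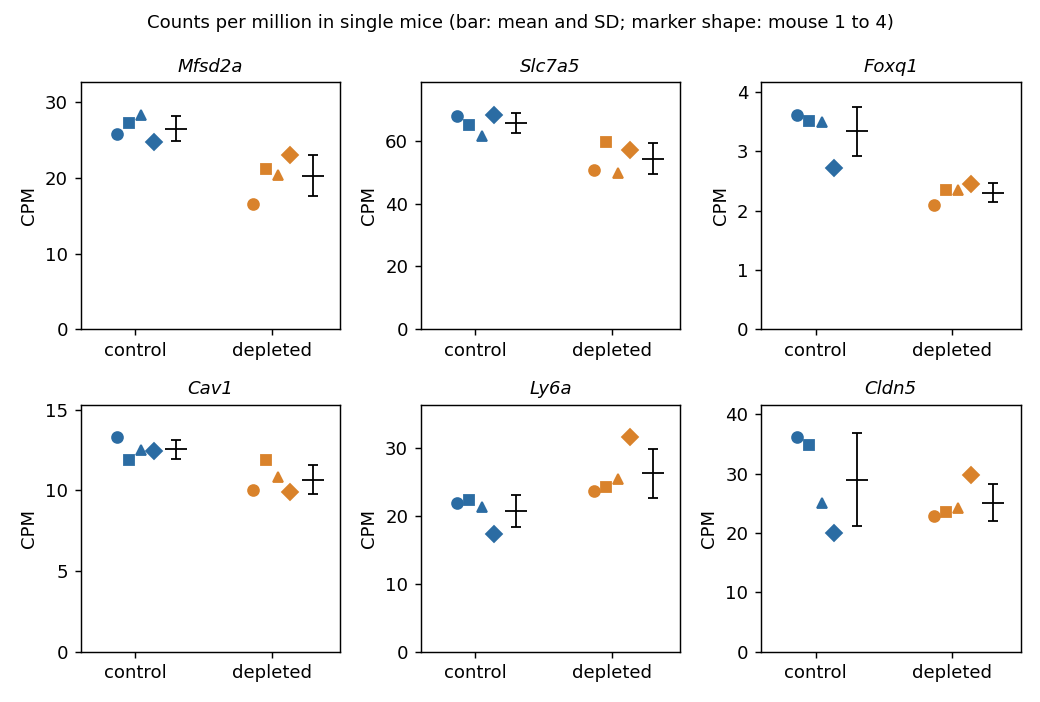
CPM in single mice for the 5 members whose groups did not overlap and for Cldn5, whose groups did; each panel starts at 0, bars give the mean and SD of 4 mice, and marker shape gives the mouse number (circle 1, square 2, triangle 3, diamond 4). Depleted mice lie below controls for Mfsd2a, Slc7a5, Foxq1 and Cav1 and above them for Ly6a.

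The endothelial receptors showed no common direction. Flt1 and Kdr are receptors of VEGF, Tek and Tie1 form the angiopoietin receptor system, Eng is a co-receptor of the TGF-beta family, and Ptprb is the phosphatase that acts on Tek. Differences of the 9 receptors ran from -0.28 for Robo4, a guidance receptor that steadies vessels, to 0.22 for Adgrl4, an adhesion G protein-coupled receptor, and 5 of 9 were below 0. Flt1 was 57.5, 65.1, 52.6 and 46.8 CPM in control mice and 47.9, 42.9, 49.9 and 56.1 CPM in depleted mice, a difference of -0.17 (SE 0.11, adjusted p = 0.616). Tie1 was 13.1, 12.6, 10.6 and 10.4 CPM in control mice and 8.60, 8.68, 10.4 and 11.5 CPM in depleted mice. Here depleted mice 1 to 3 were below every control, mouse 3 by less than the rounding of these values, and depleted mouse 4 was not. The difference was -0.25 (SE 0.13, adjusted p = 0.501).

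Robo4 was 8.44, 8.28, 6.93 and 6.40 CPM in control mice and 5.24, 4.84, 6.65 and 8.04 CPM in depleted mice (SE 0.17, adjusted p = 0.603). Depleted mice 1 and 2 were below every control, and depleted mice 3 and 4 were not. Adgrl4 went the other way, at 14.3, 17.1, 17.1 and 16.1 CPM in control mice and 21.4, 17.1, 17.2 and 19.3 CPM in depleted mice. Depleted mouse 2 stayed within the controls, and the interval ran from 0.00 to 0.43 (unadjusted p = 0.0474, adjusted p = 0.447 in edgeR). Eng, the highest receptor per kilobase, differed by 0.07 (SE 0.14, adjusted p = 0.906).

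The 4 transcription factors were all lower on average in depleted mice, with a median difference of -0.30. Foxq1, a forkhead factor of the brain endothelium, had the lowest ratio of all 47 members. It was 3.62, 3.50, 3.49 and 2.72 CPM in control mice and 2.09, 2.34, 2.34 and 2.45 CPM in depleted mice. The groups did not overlap, although control mouse 4 stood nearer to the depleted mice than to the other controls. The means were 3.33 ± 0.413 CPM and 2.30 ± 0.153 CPM, or 69.1% of control, a difference of -0.53 (SE 0.13, 95% interval -0.83 to -0.23). Its adjusted p was 0.158 in edgeR and 0.0195 in DESeq2, and 0.0728 in edgeR without control mouse 4. Foxq1 was also among the least abundant members, with 115 to 198 counts a library. The gene lies on chromosome 13, bases 31556134 to 31560976, and 3200 of its 4843 exon bases are shared with A530084C06Rik on the opposite strand, which is listed at 0 counts in all 8 libraries.

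Sox18, Sox17 and Erg, factors of endothelial and arterial identity, did not have groups apart. Sox18 was 9.97, 11.8, 8.47 and 5.38 CPM in control mice and 5.79, 6.08, 7.26 and 7.49 CPM in depleted mice. Control mouse 4 was the lowest of all 8, and the difference was -0.42 (SE 0.21, 95% interval -0.90 to 0.05, adjusted p = 0.508). Sox17 differed by -0.14 (SE 0.18) from a control mean of 8.34 ± 1.60 CPM, and Erg by -0.17 (SE 0.14) from 5.22 ± 0.765 CPM.

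Among the other identity genes the differences were spread about 0, with 8 of 16 below it and a median of -0.02. Ly6a, a membrane-anchored surface antigen also known as Sca-1, was 21.9, 22.3, 21.3 and 17.3 CPM in control mice and 23.7, 24.3, 25.4 and 31.6 CPM in depleted mice. All depleted mice were above all controls, with control mouse 4 the lowest and depleted mouse 4 the highest. The means were 20.7 ± 2.30 CPM and 26.3 ± 3.65 CPM, or 127% of control, a difference of 0.34 (SE 0.11, 95% interval 0.09 to 0.59, adjusted p = 0.316). Ly6a lies on chromosome 15, bases 74994877 to 74998031, within the Ly6 family of related genes. How reads that match several genes of this family were counted is not given, and its part in the Ly6a values was not tested. Ly6c1, a relative of Ly6a and a capillary marker, was 31.9 ± 4.13 CPM and 34.0 ± 4.09 CPM, a difference of 0.09 (SE 0.11, adjusted p = 0.824 in edgeR).

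Cav1 encodes caveolin-1, the coat protein of caveolae, the vesicles that are scarce in barrier endothelium. It measured 13.3, 11.9, 12.5 and 12.4 CPM in control mice and 10.0, 11.9, 10.8 and 9.87 CPM in depleted mice. The gap between the groups, from depleted mouse 2 to control mouse 2, was smaller than the rounding of these values. The difference was -0.24 (SE 0.09, 95% interval -0.43 to -0.05, adjusted p = 0.362), and -0.12 with the striatal covariate. The gene lies on chromosome 6, bases 17306335 to 17341452, and its promoter is the second of those printed above.

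Fn1, which encodes fibronectin of the vessel wall matrix, and Egfl7, a secreted protein of growing vessels, had differences of the same size. Fn1 was 58.9, 49.0, 54.8 and 51.3 CPM in control mice and 34.3, 54.1, 41.4 and 39.4 CPM in depleted mice, so that depleted mouse 2 alone lay within the controls. Its difference was -0.34 (SE 0.13, adjusted p = 0.372), or -0.47 with an adjusted p of 0.0259 in edgeR without depleted mouse 2. With the striatal covariate it was -0.11. Fibroblasts also make Fn1, and the summed level of 12 fibroblast and meningeal genes ran from 148 to 196 CPM on control food and from 79.7 to 167 CPM on PLX3397 food. Of these 12 only Pdgfra, which oligodendrocyte precursors also express, passed the test; the part of fibroblasts in the Fn1 values was not tested.

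Egfl7, named after its values were seen, was 38.8, 34.2, 25.9 and 25.3 CPM in control mice and 23.6, 25.1, 23.8 and 25.7 CPM in depleted mice, a difference of -0.34 (SE 0.13, adjusted p = 0.390). Control mice 3 and 4 were level with the depleted mice, and the higher control mean came from mice 1 and 2. Part of its exons is shared with Gm20532 and the microRNA gene Mir126a on the same strand. Itm2a, the highest of these genes per kilobase, was 42.0 ± 3.21 CPM and 42.6 ± 4.26 CPM, and the remaining members differed by between -0.30 for Nostrin and 0.22 for Vwf, the gene of von Willebrand factor. Plvap, which marks the fenestrated vessels that lack a barrier, averaged 8.81 ± 1.20 CPM on control food and 9.52 ± 1.63 CPM on PLX3397 food, a difference of 0.11 (SE 0.14, adjusted p = 0.833).

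**Figure D3:**
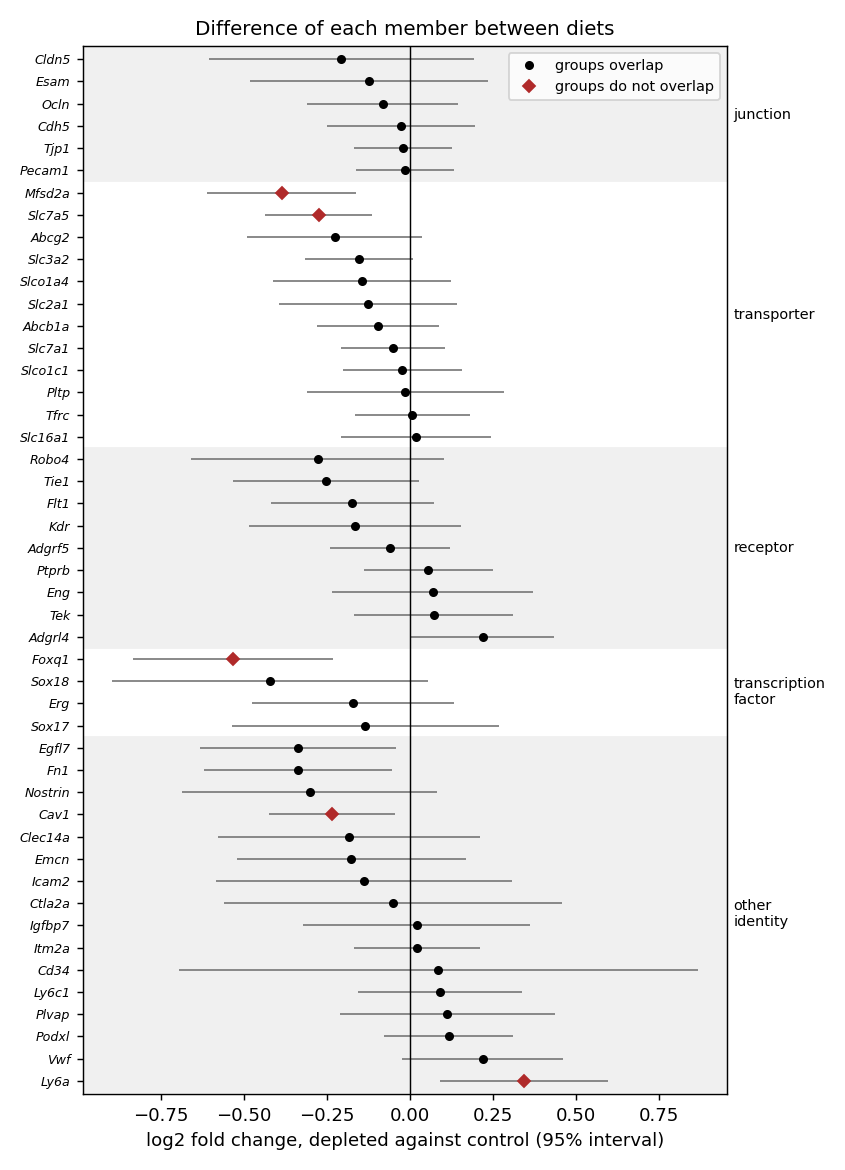
Log2 fold change of each member, depleted against control mice, with its 95% interval from the edgeR fit, grouped by role; red diamonds mark the 5 members whose groups did not overlap. Most intervals cross 0, and Cd34 has the widest.

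Cd34, a sialomucin of the luminal endothelial surface, had the widest interval of the members, -0.70 to 0.87 about a difference of 0.08 (SE 0.35, adjusted p = 0.959). It was 47.5, 25.2, 21.0 and 55.7 CPM in control mice and 50.0, 28.5, 25.0 and 55.2 CPM in depleted mice. The high values are control mice 1 and 4 and depleted mice 1 and 4, which are the 4 libraries with almost no Hcrt. The 4 libraries without Hcrt averaged 52.1 ± 4.01 CPM and the 4 with it 24.9 ± 3.03 CPM, 2.09-fold lower, with no overlap. Cd34 was the only 1 of the 47 members with this pattern and no member had the opposite one, beside 2.42% and 2.31% of all genes. That is near the share of all genes, so it is no result about the members as a set. The split by Hcrt was itself read from these counts. With the presence of Hcrt as a block, the difference between diets was 0.12 with an SE of 0.09 (adjusted p = 0.679). Cldn5, by contrast, was 27.2 ± 7.24 CPM without Hcrt and 26.9 ± 5.31 CPM with it. Cd34 overlaps Gm16897 by 148 exon bases on the opposite strand, and that gene was at 0.864 to 2.55 CPM.

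**Figure D4:**
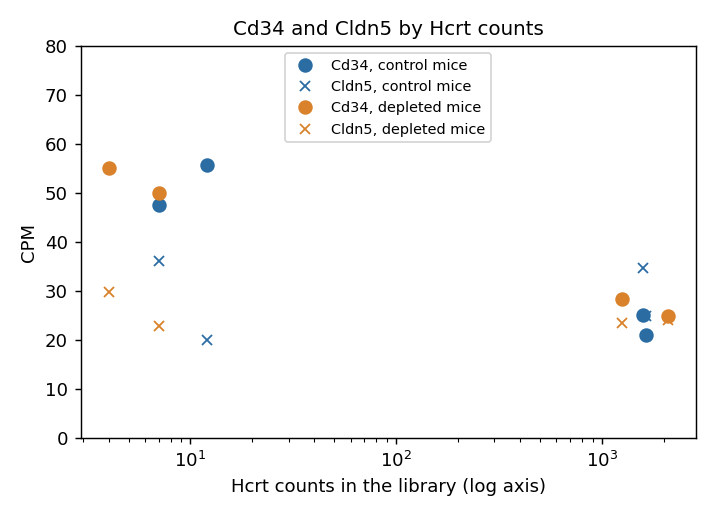
Levels of Cd34 (filled circles) and Cldn5 (crosses) in CPM against the Hcrt counts of the same library on a log axis, blue for control and orange for depleted mice. Cd34 falls into 2 bands, at 47.5 to 55.7 CPM without Hcrt and 21.0 to 28.5 CPM with it, with both diets in each, and Cldn5 does not.

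The diet differences were also taken within each kind of library, 2 control against 2 depleted mice each, as a description. In libraries with and without Hcrt respectively, the difference was -0.42 and -0.37 for Mfsd2a, -0.57 and -0.47 for Foxq1, and -0.22 and -0.34 for Slc7a5. It was 0.19 and 0.49 for Ly6a. Cav1 differed by -0.11 and -0.37 and Fn1 by -0.13 and -0.58. Across the 47 members, 29 had the same direction in both kinds and 18 had opposite directions. The same count was not made over all genes, so no reading is drawn from it.

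Members tended to be high or low together in single mice. Of the 47 members, 29 (61.7%) had their lowest value in control mouse 4 (12) or depleted mouse 1 (17), beside 31.7% of all genes. In control mouse 1 (11), control mouse 2 (11) or depleted mouse 4 (12), 34 members (72.3%) had their highest value, beside 38.1% of all genes. These mice were picked after the values were seen, and control mouse 4 also held the highest value of 6 members, among them Tjp1, Slc7a5, Tfrc and Cd34. The share of mitochondrial counts was 4.76% in control mouse 4 and 4.99% in depleted mouse 1, the lowest of the 8, and 5.91%, 6.03% and 6.34% in control mouse 1, control mouse 2 and depleted mouse 4, the highest, and its part in the members' values was not tested. The summed level of all members was 1480, 1448, 1374 and 1359 CPM in control mice and 1266, 1323, 1308 and 1468 CPM in depleted mice. Depleted mouse 4 was thus as high as the upper controls. Members were therefore also read relative to 12 of their own number, Pecam1, Cdh5, Esam and the 9 receptors, each gene being left out of its own reference; this reading was chosen after the data were seen. The mean log2 level of these 12 genes was 4.16, 4.26, 4.06 and 3.94 in control mice and 4.01, 3.90, 4.06 and 4.23 in depleted mice.

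Relative to these genes, Ly6a was at 0.26 ± 0.08 log2 units in control and 0.66 ± 0.09 in depleted mice, and Foxq1 at -2.36 ± 0.11 and -2.83 ± 0.13. Groups were apart for 3 members as lower, Foxq1, Tie1 and Flt1 (beside 1.79% of all genes), and for 2 as higher, Ly6a and Ly6c1 (beside 2.21%). Mfsd2a, Slc7a5 and Cav1 overlapped on this scale. With the mean of the 12 genes as a covariate in edgeR, Ly6a had a difference of 0.40 (SE 0.07, adjusted p = 0.0345) and was the only member past the threshold, beside 1.17% of all genes lower and 0.104% higher. In this fit the 12 genes were not left out of their own covariate, so it was no fair test of those 12. Ly6a is not among them. Foxq1 differed by -0.49 (adjusted p = 0.158) and Mfsd2a by -0.36 (adjusted p = 0.171) in that fit. Since the covariate is made of endothelial genes measured in the same libraries, these values describe shifts within the set and not its level in the tissue.

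**Figure D5:**
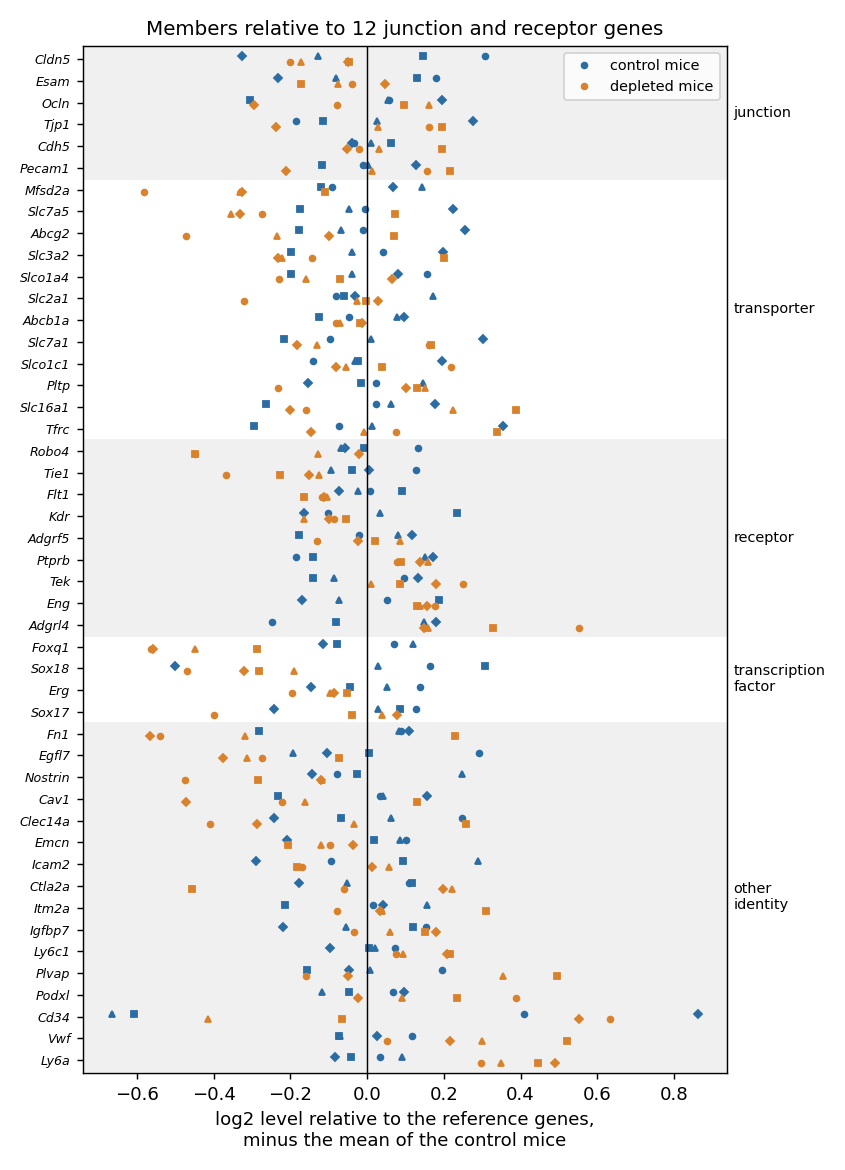
Log2 level of each member relative to 12 junction and receptor genes, minus the mean of the control mice, by role; blue points are control mice, orange points depleted mice, and marker shape gives the mouse number (circle 1, square 2, triangle 3, diamond 4). Depleted mice lie apart from controls for Ly6a and Ly6c1 to the right and Foxq1, Tie1 and Flt1 to the left.

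Genes that act on or beside the members were read from lists made in the same way. Of 21 genes of the barrier WNT pathway none passed the test, with a median of -0.05; the one with the smallest p was the co-receptor Lrp5, at 9.01 ± 0.938 CPM and 6.95 ± 0.616 CPM (adjusted p = 0.235). Of 20 genes of VEGF, angiopoietin, TGF-beta and Notch signalling, groups were apart for 3 as lower and 1 as higher. Over all genes these shares were 3.50% and 2.28%. In the test 1 of the 20 was lower and none higher, beside 1.11% and 0.0546% of all genes. This was Tgfbr2, a TGF-beta receptor that fell from 13.7 ± 0.980 CPM to 9.29 ± 0.648 CPM (adjusted p = 0.0108 in edgeR) and that microglia also express. Of 14 further junction and caveola genes 1 was lower, F11r, the junctional adhesion molecule A of endothelium, leukocytes and platelets, which fell from 6.95 ± 0.362 CPM to 4.12 ± 0.828 CPM (adjusted p = 0.0380 in edgeR). The part of microglia in the values of Tgfbr2 and F11r was not tested. Among 18 other barrier transporters none passed, with a median of -0.01, and the lipoprotein receptor gene Lrp8 had the smallest p (86.5 ± 1.77 CPM and 75.3 ± 5.15 CPM, adjusted p = 0.256). The 12 genes listed for artery and vein had a median of -0.03 and none passed. The list holds Stmn2 and Tmsb10, which neurons also make, at 342 ± 13.2 and 164 ± 29.5 CPM in control mice. The capillary carbonic anhydrase gene Car4 had the smallest p (39.1 ± 9.31 CPM and 26.6 ± 6.96 CPM, adjusted p = 0.387 in edgeR).

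Genes of endothelial activation were measured for 9 of 12 listed, and none passed the test. Vcam1, a leukocyte adhesion molecule, was 20.8 ± 1.87 CPM and 22.2 ± 2.39 CPM (difference 0.09). Icam1, which microglia also make, was 1.65 ± 0.444 CPM and 1.16 ± 0.207 CPM (difference -0.51, adjusted p = 0.455). Lcn2 had the smallest p of these genes, at 0.140 ± 0.0931 CPM and 0.500 ± 0.218 CPM (adjusted p = 0.239), levels that rest on few reads. Groups did not overlap for 1 of the 9 genes, beside 3.50% of all genes as lower. This was Angptl4, at 2.61 ± 0.227 CPM and 1.85 ± 0.303 CPM (difference -0.50, adjusted p = 0.290 in edgeR).

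Other cells of the vessel and the tissue were read beside the members. All 11 pericyte genes had a difference below 0, with a median of -0.15, and their sum was lower in every depleted mouse (209 to 223 CPM) than in every control mouse (223 to 264 CPM), with a gap smaller than the rounding. One gene of the list passed the test, Cspg4, which fell by 0.86 on the log2 scale (adjusted p = 3.14e-04 in edgeR) and which oligodendrocyte precursors also express. Cspg4 went from 24.5 ± 1.37 CPM to 13.5 ± 1.17 CPM, a fall larger than the gap between the sums. The pericyte sum without Cspg4 was not taken, so the separation of the sums may rest on this gene. Smooth muscle genes summed to 59.4 to 85.4 CPM and 58.3 to 74.6 CPM. The 12 astrocyte genes summed to 3646 to 4246 CPM and 3604 to 4326 CPM. The 12 oligodendrocyte genes had a median difference of 0.50 with 10 at an unadjusted p under 0.05 and none past the threshold, and 11 of the 12 striatal genes were also higher at that level, with a median of 1.40. The part of these shifts in the members' values was not tested beyond the striatal covariate. Choroid plexus genes, whose capillaries carry Plvap, summed to 375 to 549 CPM in control and 93.5 to 784 CPM in depleted mice.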

How the data were processed

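Whole forebrains of 8 mice were sequenced in bulk, 4 per diet, with the group read from each sample title. The authors deposited 1 table of raw counts, whole numbers with a row for each gene symbol; the tools named in the submitters' processing notes are STAR, FastQC, MultiQC, DESeq and DESeq2, with mm10. The sources used here do not give versions, annotation, strand setting or kit, so reads of overlapping genes on opposite strands may be mixed; this touches 9 members, and 2 more share bases with a gene on the same strand.

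Counts were filtered with filterByExpr, which kept 20140 genes and all 47 members, scaled by TMM and passed to the quasi-likelihood test of edgeR 4.0.16 (R 4.3.3), with Benjamini-Hochberg adjustment over all genes and a threshold of 0.05. The SE of a fold change is its size divided by the root of F. Log2 CPM used a prior count of 2. For single members all 70 splits of the mice were enumerated as an exact two-sided permutation test. The common biological coefficient of variation was 16.1%. Every pair of replicate libraries differed by at least 11.2 times the sampling noise (genes of at least 10 counts), and each library counted once.

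Levels per kilobase used exon lengths of GENCODE M21, in which all 47 symbols matched, and promoters came from RefSeq (GRCm38.p6); CPM values carry counting error as well as the spread between mice. The text names 22 members by rule. They are those whose groups did not overlap. Per role, the 3 with the smallest p and the 2 with the highest control level per kilobase were added. Egfl7 and a few others beside a count were named after their values were seen. In each list of related endothelial genes, those past the threshold or the 1 with the smallest p are named. Vcam1, Icam1 and Angptl4 were named outside this rule. Lists of other cells and regions are given mainly by their sums. The members and lists were chosen with earlier results of these data known. Alternatives were other scalings and filters, DESeq2 1.42.0, limma-voom (limma 3.58.1), the mouse number as a block, each mouse left out, the striatal mean as a covariate, Hcrt presence (at least 100 counts) as a block and, added after the data were seen, the mean of 12 endothelial genes as a covariate.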

Additional observations from a re-analysis of the deposited data

Results flagged for a closer look

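In groups of 4 mice, a mouse was marked where its gap to the nearest other took most of the group's range (Dixon's ratio at the 95% level). Of 94 groups, 47 members in 2 diets, 5 were marked, and chance marks about 1 in 20. Control mouse 4 was the highest of its group for the cationic amino acid transporter Slc7a1, at 44.8 CPM against 39.2 to 39.8 CPM in the others. The same mouse was the lowest for the phospholipid transfer protein gene Pltp, at 41.2 CPM against 54.3 to 56.8 CPM, and for Foxq1, at 2.72 CPM against 3.49 to 3.62 CPM. Control mouse 1 was the highest for Slco1a4, at 66.0 CPM against 53.7 to 55.4 CPM. Depleted mouse 4 was the highest for Ly6c1, at 40.0 CPM against 31.3 to 32.7 CPM.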

How the results depend on the processing

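Under 18 alternatives the number of members past the threshold as lower was 0, except for 3 in DESeq2 (Mfsd2a, Foxq1 and Slc7a5) and a range of 0 to 2 when 1 mouse was left out. The 2 were Fn1 and Slc7a5, without depleted mouse 2, whose removal also took the calls over all genes from 223 lower and 11 higher to 441 and 243; DESeq2 gave 346 and 118, and leaving out any other mouse gave 178 to 214 and 2 to 8. The number as higher was 0 except for 1, Ly6a, with the mean of the 12 endothelial genes as a covariate, an alternative chosen after the data were seen. The cause of these changes was not tested. Leaving out 1 mouse moved the difference by over 1.5 times for 14 of the 22 members named by rule, none of which passed the test, and turned its sign for 4 of them, Eng, Itm2a, Ly6c1 and Tjp1. The median difference of the members stayed below 0 in the other alternatives, from -0.18 without depleted mouse 4 to -0.05 without depleted mouse 2. With the mean of the 12 endothelial genes as a covariate it was -0.04. These 12 genes are among the 47 members, so that value is no separate check. Deviations of same-numbered mice of the 2 diets had correlations of -0.277, -0.294, 0.604 and -0.079 for mice 1 to 4. The largest correlation, 0.648, was between control mouse 4 and depleted mouse 1. Hcrt presence went with the number, in mice 2 and 3 of both diets and not in mice 1 and 4. The sample titles give no pairing, and these values do not settle whether the numbers pair the mice. With the number as a replicate block 0 members passed in either direction, the smallest adjusted p was 0.312, the members' median was -0.10, and 161 genes were lower and 4 higher. Members of few counts, such as Foxq1 and Icam2, and 4 mice a group limit what could be detected.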
